A study of Rattus norvegicus with 22 samples.

Results

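Sham surgery was compared between its acute and its late time point in the rat hippocampus, using the 6 sham samples among the 14 RNA-seq samples of a study of lateral fluid percussion (LFP) traumatic brain injury (TBI). The 2 sham samples taken 1 day after surgery (day 1) were set against the 4 taken 14 days after surgery (day 14), over every gene with enough counts, and a gene was followed further where both day 1 samples moved the same way. All 14 samples came from adult male Sprague-Dawley rats, 1 rat per sample as the protocols describe them, and hold bulk tissue of the right hippocampus, the side of the operation. Sham rats had isoflurane anesthesia, a scalp incision, a craniectomy over the right hemisphere and a plastic hub cemented to the skull, and no fluid pulse was given. TBI rats (4 at day 1 and 4 at day 14) had the same surgery and the pulse, and they enter here only for the spread between rats and for a side-by-side view of the same interval. No rat without surgery was analysed here, so the day 14 sham samples are the baseline, and a difference between the days can come from the first day, from the second week or from rat age, which cannot be told apart.

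Sham surgery exposes the brain to inhaled anesthetic, to opening of the skull and to the hormones of surgical stress. Corticosterone, the main glucocorticoid of the rat, enters the brain and acts through the glucocorticoid receptor, which is abundant in hippocampal neurons and switches on genes such as Tsc22d3, Sgk1 and Klf9. Hippocampal genes also follow the time of day through the circadian clock, neuronal activity through immediate early genes, and injury through reactive astrocytes and microglia. In bulk tissue, fewer cells of a type and less RNA per cell cannot be told apart.

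The table lists 17172 genes, of which 12875 passed edgeR's filter on low counts and were tested. Total counts were 19189470 and 23743703 in the day 1 sham samples and 15506103 to 19175585 in the day 14 sham samples, so both day 1 libraries were deeper than all 4 day 14 libraries, and depth and day cannot be told apart. Levels are given as log2 CPM (counts scaled to the library size, on a log2 scale, with a prior count of 2). Values of a group are listed from replicate 1 onward, day 1 first. A fold change is day 1 over day 14 as fitted by edgeR, and p-values are adjusted over all tested genes. The fit used the spread of all 4 groups, since the day 1 sham group holds 2 rats.

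The 2 day 1 samples were less alike than any pair of day 14 sham samples. Spearman's rho across genes was 0.963 between them and 0.984 to 0.995 among the day 14 samples, and the chi-square of their counts per degree of freedom was 125.9 against 13.3 to 45.7. Their levels lay over 2 log2 units apart for 308 genes, of which 288 were higher in replicate 1. Markers of the choroid plexus, the tissue of the ventricles that secretes cerebrospinal fluid, were high in replicate 1 alone: the mean over 24 tested markers was 6.10 log2 CPM in replicate 1, -0.11 in replicate 2 and 0.32 to 0.58 in the day 14 samples. Ttr, the transthyretin gene that marks this tissue, had 12.89 and 1.74 log2 CPM at day 1 against 3.53, 2.91, 3.43 and 3.36 at day 14. A gene was therefore counted as changed in both day 1 samples where the fit called it, both day 1 samples lay beyond all 4 day 14 samples, and the smaller of their differences from the day 14 mean was at least 50% of the larger.

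At an adjusted p under 0.05, 1450 genes were higher at day 1 (11.3% of those tested) and 1014 were lower (7.88%). The day 1 samples met the further conditions for 1027 of the higher genes (7.98% of those tested) and 850 of the lower ones (6.60%). Both day 1 samples lay beyond all 4 day 14 samples, on either side and with no test, for 41.5% of tested genes. The median log2 fold change was 0.77 among the 1027 higher genes and -0.86 among the 850 lower genes, against 0.02 over all tested genes. Changes over 1 log2 unit were seen in 251 of the higher genes (24.4%) and 296 of the lower genes (34.8%). Of the 587 called genes that failed the conditions, 423 were higher and 164 were lower, and among the higher ones replicate 1 was the higher sample in 159 and replicate 2 in 264. The condition on size parted Acan, whose smaller day 1 difference was 50.07% of the larger, from Gm2a at 49.98%.

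The counts depended on which rats were in the fit. Leaving out day 1 replicate 1 gave 1285 higher and 987 lower genes, and leaving out day 1 replicate 2 gave 673 and 270. Leaving out day 14 replicate 1, 2 or 4 gave 871 and 565, 887 and 605, or 808 and 521, while leaving out replicate 3 gave 1490 and 1208. Of the 1027 genes higher in both day 1 samples, 275 (26.8%) were called in each of the fits that held 1 of the day 1 samples, as were 120 (14.1%) of the 850 lower genes. Choroid plexus genes were also high in TBI day 14 replicates 2 and 3 (list means 3.61 and 5.24 log2 CPM, against 0.47 to 1.18 in the other 6 TBI samples). Without those 2 TBI libraries, which enter the sham comparison through the shared spread, 1056 genes were higher and 765 lower (821 and 661 in both day 1 samples).

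**Figure D1:**
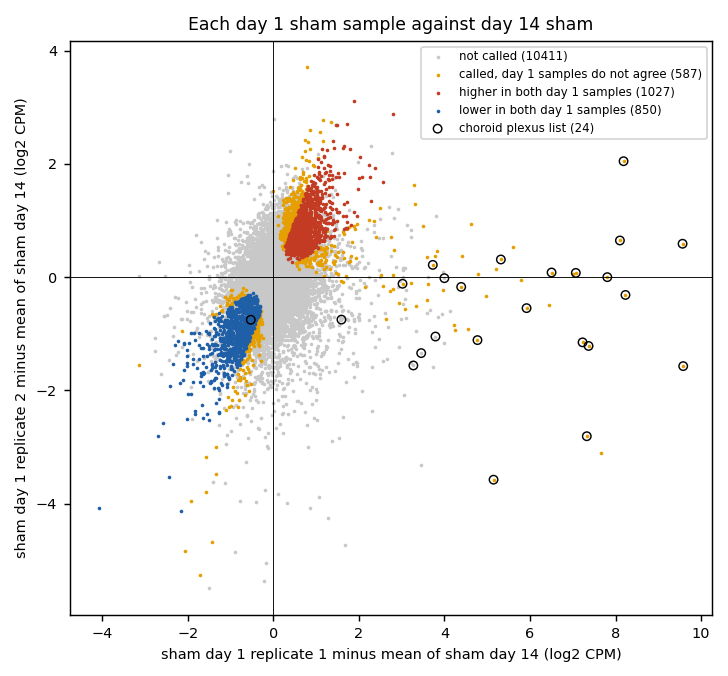
Difference of each day 1 sham sample from the mean of the 4 day 14 sham samples in log2 CPM, with replicate 1 on the x axis and replicate 2 on the y axis and 1 point per tested gene. Red (1027) and blue (850) points are higher or lower in both day 1 samples, orange points (587) were called without meeting the conditions on both, grey points were not called, and the 24 circled choroid plexus markers spread to the right, along the axis of replicate 1.

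The largest increases that both day 1 samples shared were in genes for RNA turnover, transcription factors, signalling and a respiratory subunit. Zfp36l2, which encodes an RNA-binding protein that speeds mRNA decay, stood at 3.40 and 3.47 log2 CPM in the day 1 samples and 0.36, 0.45, 0.92 and 0.65 in the day 14 samples (log2 fold change 2.90, SE 0.42, adjusted p = 0.00144). The 2 day 1 samples lay close together and more than 2 log2 units above every day 14 sample. Gng13, a G protein gamma subunit, had the smallest adjusted p of the 12 largest increases and measured 5.88 and 5.62 log2 CPM at day 1 and 3.67, 4.0, 3.91 and 3.89 at day 14 (log2 fold change 1.89, SE 0.16, adjusted p = 5.79e-05). Ndufa12, a subunit of respiratory complex I, had 5.65 and 6.31 log2 CPM at day 1 against 3.92, 3.97, 3.99 and 4.12 at day 14 (log2 fold change 2.02, SE 0.26, adjusted p = 0.000999). The groups do not overlap in either gene, as in every gene that meets the conditions. Among transcription factors, Klf5 stood at 2.75 and 2.48 log2 CPM in the day 1 samples and -0.17, 0.45, 1.18 and 0.55 in the day 14 samples (log2 fold change 2.1, SE 0.38, adjusted p = 0.00353). Tshz3, a zinc finger factor of the teashirt family, measured 4.17 and 5.04 log2 CPM at day 1 and 2.60, 2.79, 2.76 and 2.86 at day 14 (log2 fold change 1.93, SE 0.25, adjusted p = 0.00109), with replicate 2 the higher of the day 1 pair. Tox, an HMG-box nuclear protein, showed the same order of the pair and had 4.52 and 5.53 log2 CPM at day 1 against 3.28, 2.97, 3.0 and 3.26 at day 14 (log2 fold change 1.99, SE 0.25, adjusted p = 0.000987).

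Clspn, which encodes the replication checkpoint adaptor claspin, stood at 2.36 and 2.45 log2 CPM in the day 1 samples and -0.06, 0.57, 0.11 and 0.65 in the day 14 samples (log2 fold change 2.14, SE 0.40, adjusted p = 0.00393). Nxph3, a secreted ligand of neurexins, measured 4.61 and 5.08 log2 CPM at day 1 and 2.44, 2.57, 3.24 and 3.0 at day 14 (log2 fold change 2.03, SE 0.41, adjusted p = 0.00584). Tnfaip8, a TNF-induced regulator of cell death, had 4.61 and 5.61 log2 CPM at day 1 against 2.98, 3.76, 3.53 and 3.17 at day 14 (log2 fold change 1.81, SE 0.26, adjusted p = 0.00144). All 3 were higher in each day 1 sample than in any day 14 sample. A further pair depended on which rats were used. Calml4, a calmodulin-like protein, stood at 5.19 and 4.25 log2 CPM in the day 1 samples and 2.52, 3.07, 3.0 and 3.06 in the day 14 samples (log2 fold change 1.88, SE 0.52, adjusted p = 0.0231), and was not called without day 1 replicate 1 or day 14 replicate 1 or 4. Slc27a2, a very long chain acyl-CoA synthetase, measured 2.31 and 3.29 log2 CPM at day 1 and 0.57, 0.63, 0.25 and 0.93 at day 14 (log2 fold change 2.35, SE 0.68, adjusted p = 0.0277), and kept its call in 1 of the 6 fits that left out a sham sample. Over those fits the log2 fold change ranged from 1.33 to 2.27 for Calml4 and from 1.76 to 2.76 for Slc27a2.

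**Figure D2:**
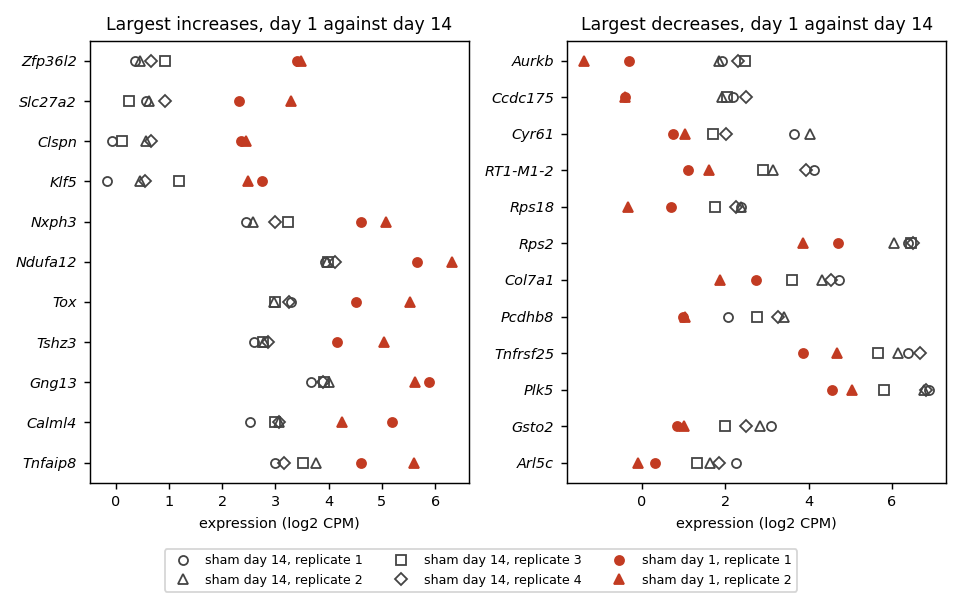
Expression in log2 CPM of 11 of the 12 largest increases (left) and 12 largest decreases (right) shared by both day 1 sham samples, among genes with a mean above 1 log2 CPM. Filled red symbols are the 2 day 1 samples and open symbols the 4 day 14 samples. In each row the filled symbols lie apart from the open ones, by construction of the conditions.

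The largest decreases included a mitotic kinase, matrix genes and small ribosomal subunit genes. Aurkb, the kinase of the chromosomal passenger complex, had -0.31 and -1.39 log2 CPM at day 1 against 1.92, 1.84, 2.46 and 2.31 at day 14 (log2 fold change -3.17, SE 0.92, adjusted p = 0.0289). Both day 1 samples were near the limit of detection, and the call was lost without either day 1 sample or day 14 replicate 4 (log2 fold change -3.95 to -2.63 over the fits that left out a sham sample). Ccdc175, which encodes a coiled-coil protein, stood at -0.41 and -0.42 log2 CPM in the day 1 samples and 2.19, 1.91, 2.04 and 2.50 in the day 14 samples (log2 fold change -2.76, SE 0.53, adjusted p = 0.00487), and kept its call in all 6 of those fits. Cyr61, a matricellular protein whose gene responds quickly to serum and stretch, measured 0.74 and 1.03 log2 CPM at day 1 and 3.65, 4.05, 1.70 and 2.01 at day 14 (log2 fold change -2.34, SE 0.61, adjusted p = 0.0171). The day 14 samples spread over more than 2 log2 units, and the call was lost without either day 1 sample, at log2 fold changes from -2.63 to -1.88 over the 6 fits.

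RT1-M1-2, a class I gene of the rat major histocompatibility complex, had 1.11 and 1.61 log2 CPM at day 1 against 4.12, 3.15, 2.90 and 3.95 at day 14 (log2 fold change -2.28, SE 0.51, adjusted p = 0.00937). Tnfrsf25, a death receptor of the TNF family, stood at 3.87 and 4.69 log2 CPM in the day 1 samples and 6.39, 6.15, 5.66 and 6.69 in the day 14 samples (log2 fold change -1.93, SE 0.45, adjusted p = 0.0101). Both calls were lost without day 1 replicate 1, at highest adjusted p-values of 0.0549 and 0.0682 over the fits that left out a sham sample. Plk5, a polo-like kinase expressed in brain, measured 4.56 and 5.06 log2 CPM at day 1 and 6.90, 6.78, 5.81 and 6.82 at day 14 (log2 fold change -1.81, SE 0.31, adjusted p = 0.00282). Gsto2, a glutathione transferase, had 0.83 and 1.0 log2 CPM at day 1 against 3.10, 2.82, 2.0 and 2.50 at day 14 (log2 fold change -1.80, SE 0.33, adjusted p = 0.00353). Plk5 and Gsto2 kept their calls in all 6 fits, and in both genes day 14 replicate 3 was the day 14 sample nearest to day 1. Col7a1 (log2 fold change -2.01), the protocadherin Pcdhb8 (-2.01), Rps18 (-2.04) and the small GTPase Arl5c (-1.78) were not called without day 1 replicate 2, at highest adjusted p-values of 0.0876, 0.0608, 0.0915 and 0.114.

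The glucocorticoid-responsive genes that passed the test were all higher at day 1. Of 23 tested members of the list, 9 were called higher (39.1%, against 11.3% of all tested genes) and 0 lower, and 6 met the conditions on both day 1 samples (26.1%, against 7.98%). The median log2 fold change of the list was 0.53, and 20 members had a positive value. Tsc22d3, the leucine zipper protein GILZ that carries anti-inflammatory effects of glucocorticoids, stood at 6.15 and 6.32 log2 CPM in the day 1 samples and 5.58, 5.41, 5.75 and 5.40 in the day 14 samples (log2 fold change 0.69, SE 0.14, adjusted p = 0.00563). Klf9, a Krüppel-like factor induced by both glucocorticoid and thyroid hormone, measured 7.03 and 7.62 log2 CPM at day 1 and 6.08, 6.13, 6.84 and 5.88 at day 14 (log2 fold change 1.08, SE 0.29, adjusted p = 0.0194). Gpd1, which encodes glycerol-3-phosphate dehydrogenase, had 7.74 and 7.79 log2 CPM at day 1 against 6.22, 6.31, 7.18 and 6.63 at day 14 (log2 fold change 1.13, SE 0.32, adjusted p = 0.0257). Day 14 replicate 3 was the day 14 sample nearest to day 1 in all 3 genes.

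Sgk1, the serum- and glucocorticoid-induced kinase, had 7.03 and 7.65 log2 CPM at day 1 and 6.01 to 6.91 at day 14 (log2 fold change 0.95, SE 0.31, adjusted p = 0.0444). Pdk4, a kinase that restrains pyruvate oxidation, had 2.62 and 3.10 log2 CPM at day 1 and 0.93 to 2.22 at day 14 (log2 fold change 1.40, SE 0.46, adjusted p = 0.0444). Errfi1, a feedback inhibitor of the EGF receptor, had 5.86 and 6.30 log2 CPM at day 1 and 5.08 to 5.77 at day 14 (log2 fold change 0.71, SE 0.23, adjusted p = 0.04). In these 3 genes too, day 14 replicate 3 had the highest day 14 level. The 3 other called members did not meet the conditions on both day 1 samples, namely the receptor gene Nr3c1 (log2 fold change 0.46), the cell cycle inhibitor Cdkn1a (1.32) and the sulfotransferase Sult1a1 (0.76). The widely used target Fkbp5, a chaperone that dampens receptor activity, had 6.55 and 7.0 log2 CPM at day 1 and 6.22 to 6.56 at day 14 (log2 fold change 0.38, SE 0.18, adjusted p = 0.156) and overlapped. Per1, a clock gene that glucocorticoids induce, had 6.79 and 7.28 log2 CPM at day 1 and 6.53 to 6.65 at day 14 (log2 fold change 0.46, SE 0.24, adjusted p = 0.19) and did not pass the test. The count of called members fell to 6 without day 1 replicate 1, to 2 without day 1 replicate 2, to 2 without day 14 replicate 1, and to 1 without day 14 replicate 2 or replicate 4, and it was 9 without day 14 replicate 3. It also fell to 2, with a list median of 0.51, without the 2 TBI day 14 libraries that hold choroid plexus genes. For this list and for the thyroid, clock, neocortex and thalamus, chaperone and resting astrocyte lists described in what follows, 0 members were lower by limma-voom or DESeq2 either, and 0 had an unadjusted p under 0.05 in that direction.

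Genes that respond to thyroid hormone or retinoic acid overlap with that list in Klf9. Of 18 tested members, 5 were called higher and 0 lower, and 3 met the conditions on both samples (16.7%, against 7.98% of tested genes). The median log2 fold change was 0.90, and it was 0.38 without day 1 replicate 1, the library with the choroid plexus genes, and 0.41 with the choroid plexus score as covariate. The mean level of the list was 5.39 log2 CPM in replicate 1 and 4.68 in replicate 2, against 4.33 to 4.51 at day 14. Dio2, the deiodinase that makes active thyroid hormone in glia, stood at 3.74 and 3.90 log2 CPM in the day 1 samples and 2.31, 2.24, 2.88 and 2.35 in the day 14 samples (log2 fold change 1.37, SE 0.31, adjusted p = 0.00976), and was not called without day 1 replicate 2 (highest adjusted p = 0.0647 over the fits that left out a sham sample). The other 2 called members failed the conditions. The list had 2 called members without day 14 replicate 1, 2 or 4, 3 without day 1 replicate 2 and 3 without the 2 TBI libraries.

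Of 18 tested circadian clock genes, 5 were called higher and 0 lower, and all 5 met the conditions on both day 1 samples (27.8%, against 7.98% of tested genes). The median log2 fold change of the list was 0.40. The members that rose belong to the repressive loops of the clock and to the orphan receptors that tune it. Nr1d1, the repressor REV-ERB alpha, measured 7.75 and 7.40 log2 CPM at day 1 and 7.02, 7.08, 6.67 and 6.90 at day 14 (log2 fold change 0.66, SE 0.15, adjusted p = 0.00932), and its paralog Nr1d2 had 6.64 and 6.79 log2 CPM at day 1 against 6.34, 6.02, 6.11 and 6.17 at day 14 (log2 fold change 0.55, SE 0.15, adjusted p = 0.0238). Cry1, a cryptochrome that represses CLOCK and BMAL1, stood at 3.72 and 3.87 log2 CPM in the day 1 samples and 3.19, 2.85, 2.91 and 3.28 in the day 14 samples (log2 fold change 0.73, SE 0.21, adjusted p = 0.0275). The day 1 samples lay above all day 14 samples in each of the 3. Bhlhe40, the transcriptional repressor DEC1, measured 6.34 and 6.38 log2 CPM at day 1 and 5.84, 5.95, 5.76 and 5.50 at day 14 (log2 fold change 0.59, SE 0.16, adjusted p = 0.0223). Rorb, a nuclear receptor that is also a marker of neocortical layer 4, had 3.83 and 3.27 log2 CPM at day 1 against 2.52, 1.64, 2.69 and 1.95 at day 14 (log2 fold change 1.33, SE 0.29, adjusted p = 0.00777).

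The core activators were not called: Arntl, which encodes BMAL1, had 5.39 and 6.03 log2 CPM at day 1 and 5.39 to 5.47 at day 14 (log2 fold change 0.33, SE 0.18, adjusted p = 0.2), and its partner Clock had 3.68 and 4.88 log2 CPM at day 1 and 3.54 to 4.15 at day 14 (log2 fold change 0.63, SE 0.40, adjusted p = 0.278). Per2 had 6.67 and 6.58 log2 CPM at day 1 and 6.58 to 7.14 at day 14 (log2 fold change -0.23, SE 0.17, adjusted p = 0.356). The output gene Dbp stood at 8.41 and 7.14 log2 CPM in the day 1 samples and 7.26, 7.31, 6.64 and 7.08 in the day 14 samples (log2 fold change 0.82, SE 0.29, adjusted p = 0.0593), so replicate 1 alone stood above the day 14 samples. Which members were called depended on the day 1 sample in the fit. Nr1d1 and Rorb lost their call without day 1 replicate 1, Nr1d2 without day 1 replicate 2, and Cry1 and Bhlhe40 without either. Arntl passed only without day 1 replicate 1, and Dbp only without day 1 replicate 2. Over the fits that left out a sham sample, the log2 fold change ranged from -0.02 to 0.62 for Arntl and from 0.05 to 1.32 for Dbp. The list had 3 called members without day 14 replicate 2 or 4. The labels give no hour of tissue collection, and a difference in hour between the days was not tested.

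CLOCK and BMAL1 bind the E-box CACGTG, a palindrome that reads the same on both strands. It was searched in the RefSeq promoters of build GRCr8 (250 bases before to 50 after each start), together with the palindromic glucocorticoid response element (half-sites GNACA and TGTNC, with any 3 bases between) on both strands, and the 2 motifs overlapped in 0 promoters. Of 15 clock genes with a promoter in the table, 2 held the E-box, of which Bhlhe40 was called higher. Of 29 proteasome genes, 3 held it, and all 3 were higher in both day 1 samples, as were 9 of the 33 proteasome genes tested (27.3%). Of these 3, Psmb3 was not called in any fit that left out a sham sample. A link between the E-box and the call was not tested. The E-box was also in 3 of 18 promoters of the glucocorticoid list and 2 of 22 of the immediate early list, and none of these genes was called. The 4 stretches are shown because they are the called members of these lists with a match, and the capitals mark the E-box.
Bhlhe40 (chr4:143174206-143174259, plus strand, match starting 220 bases upstream of the start): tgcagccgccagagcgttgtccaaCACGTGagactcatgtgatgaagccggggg
Psma4 (chr8:64236388-64236441, plus strand, 108 bases upstream): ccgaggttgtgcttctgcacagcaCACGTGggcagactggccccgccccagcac
Psmb3 (chr10:83193537-83193570, plus strand, 246 bases upstream): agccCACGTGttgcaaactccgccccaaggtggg
Psmc1 (chr6:125122300-125122353, plus strand, 173 bases upstream): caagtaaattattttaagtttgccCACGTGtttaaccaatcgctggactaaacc

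The E-box was in 6.65% of all 27457 promoters and 8.79% of those of tested genes, in 9.31% of the promoters of genes higher in both day 1 samples and 10.0% of those of lower genes. The glucocorticoid element was in 0 of 18 promoters of the glucocorticoid list and in 0.42% of all promoters. It was in 1 of 29 proteasome promoters, that of Psma6, which was not called. A promoter was found for 74.5% of tested genes. These are matches of letters in a window of 300 bases and not measured sites.

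Of 29 tested immediate early and activity genes, 3 were called higher and 2 lower (10.3% and 6.9%, against 11.3% and 7.88% of all tested genes), so the list had about the share of calls of the whole table. All 5 met the conditions on both day 1 samples, and the list median was 0.17. Egr1, a zinc finger factor induced by synaptic activity, measured 6.89 and 7.60 log2 CPM at day 1 and 5.77, 6.02, 6.19 and 5.44 at day 14 (log2 fold change 1.41, SE 0.32, adjusted p = 0.00946). Egr3 had 5.86 and 6.49 log2 CPM at day 1 against 4.15, 4.58, 5.36 and 4.46 at day 14 (log2 fold change 1.5, SE 0.45, adjusted p = 0.0315), and the orphan receptor Nr4a2 stood at 6.36 and 6.82 log2 CPM in the day 1 samples and 5.77, 5.48, 5.65 and 5.62 in the day 14 samples (log2 fold change 0.98, SE 0.21, adjusted p = 0.0083). These 3 were higher in both day 1 samples, with replicate 2 the higher of the pair. Nptx2, a secreted pentraxin that gathers AMPA receptors at synapses, measured 5.12 and 4.82 log2 CPM at day 1 and 6.28, 6.60, 6.48 and 6.52 at day 14 (log2 fold change -1.50, SE 0.27, adjusted p = 0.00331), and was the other lower member beside Cyr61. Fos had 3.13 and 3.0 log2 CPM at day 1 and 2.51 to 3.32 at day 14 (log2 fold change 0.07, SE 0.30, adjusted p = 0.904), and Arc had 7.26 and 7.55 log2 CPM at day 1 and 6.84 to 7.70 at day 14 (log2 fold change 0.17, SE 0.32, adjusted p = 0.746). Both overlapped between the days. Without day 1 replicate 2, 0 members were called higher and 1 lower. The other fits that left out a sham sample called 2 to 4 higher.

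Genes of the presynaptic terminal moved in both directions. Of 31 tested members, 7 were called higher and 3 lower, with a median of 0.20. In both day 1 samples these were 6 and 3 (19.4% and 9.68%, against 7.98% and 6.60% of tested genes). Syn1, the vesicle phosphoprotein synapsin, had 11.20 and 11.26 log2 CPM at day 1 against 9.95, 10.31, 10.47 and 10.05 at day 14 (log2 fold change 1.02, SE 0.16, adjusted p = 0.00193). Vamp2, the vesicle SNARE, stood at 11.25 and 11.66 log2 CPM in the day 1 samples and 10.24, 10.45, 10.54 and 10.13 in the day 14 samples (log2 fold change 1.12, SE 0.20, adjusted p = 0.00331). The membrane SNARE Snap25 measured 11.73 and 12.33 log2 CPM at day 1 and 11.06, 11.14, 11.32 and 10.75 at day 14 (log2 fold change 0.98, SE 0.30, adjusted p = 0.0366). In all 3 the day 1 samples were the highest of the 6. Cplx1 and Cplx2, the complexins that clamp fusion, had log2 fold changes of 0.67 and 1.24, and the vesicle GTPase Rab3a had 0.88.

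The 3 lower members of this list are a vesicle glycoprotein, a priming factor and a synaptotagmin. Sv2a had 8.31 and 8.63 log2 CPM at day 1 against 9.10, 9.21, 9.26 and 9.44 at day 14 (log2 fold change -0.78, SE 0.15, adjusted p = 0.00451). Unc13a stood at 8.22 and 8.62 log2 CPM in the day 1 samples and 9.22, 9.11, 8.90 and 9.01 in the day 14 samples (log2 fold change -0.63, SE 0.17, adjusted p = 0.021), and Syt12 measured 4.46 and 4.24 log2 CPM at day 1 and 5.05, 5.26, 5.42 and 5.36 at day 14 (log2 fold change -0.93, SE 0.20, adjusted p = 0.00717). All 3 were lower in both day 1 samples than in any day 14 sample. The count of higher members fell from 7 to 3 without day 1 replicate 2, to 2 without day 14 replicate 1 or 4 and to 4 without day 14 replicate 2, with 2 to 3 lower members in these fits.

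Among 24 pan-neuronal markers, 6 were called higher and 1 lower, with a median of 0.21. In both day 1 samples these were 4 and 1 (16.7% and 4.17%, against 7.98% and 6.60% of tested genes). Nrgn, the postsynaptic calmodulin-binding protein neurogranin, had 11.99 and 12.45 log2 CPM at day 1 against 11.04, 11.26, 11.12 and 10.62 at day 14 (log2 fold change 1.21, SE 0.26, adjusted p = 0.0085). The neuronal RNA-binding proteins Elavl4 (1.51) and Rbfox3 (1.24) were called without meeting the conditions, with replicate 2 the higher of the pair. Slc17a7, the vesicular glutamate transporter of excitatory hippocampal neurons, went the other way and stood at 10.22 and 10.38 log2 CPM in the day 1 samples and 10.94, 11.25, 11.23 and 11.21 in the day 14 samples (log2 fold change -0.86, SE 0.23, adjusted p = 0.0187). Without day 1 replicate 2, 1 member was called higher and 1 lower. Slc17a7 was not called without either day 1 sample, at a highest adjusted p of 0.0845.

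Glutamate receptor and potassium channel genes were called lower more often than higher. The means of both glutamate receptor lists were below the day 14 range in day 1 replicate 1 and within it in replicate 2. They were 6.092 and 6.561 log2 CPM against 6.355 to 6.570 for AMPA and kainate receptors. For NMDA and metabotropic receptors they were 6.229 and 6.596 against 6.418 to 6.597. Of 19 AMPA and kainate receptor genes, 2 were called higher and 4 lower (1 and 3 in both samples, or 5.26% and 15.8%, against 7.98% and 6.60% of tested genes), with a median of -0.07. The kainate receptor subunit Grik5 measured 8.03 and 7.72 log2 CPM at day 1 and 9.09, 9.09, 8.67 and 9.04 at day 14 (log2 fold change -1.10, SE 0.20, adjusted p = 0.00377). The AMPA receptor auxiliary subunit Cacng8 had 6.83 and 7.37 log2 CPM at day 1 against 8.40, 8.43, 8.29 and 8.37 at day 14 (log2 fold change -1.24, SE 0.26, adjusted p = 0.00675), while its relative Cacng2, stargazin, stood at 6.15 and 6.84 log2 CPM in the day 1 samples and 4.95, 4.93, 5.76 and 5.06 in the day 14 samples (log2 fold change 1.32, SE 0.29, adjusted p = 0.00823). The pair of auxiliary subunits thus moved in opposite directions in both day 1 samples. Grik4, a kainate subunit of CA3 neurons, had a log2 fold change of -0.71. Of 23 NMDA and metabotropic receptor genes, 0 were called higher and 3 lower, 2 of them in both samples (8.7%, near the 6.60% of all tested genes), which were Grin2d (-1.11) and Grin2c (-1.05). By edgeR, 3 members of that list had an unadjusted p under 0.05 in the higher direction, limma-voom called 0 and DESeq2 1.

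Of 36 potassium channel genes, 0 were called higher by edgeR, limma-voom or DESeq2 (3 at an unadjusted p under 0.05) and 3 lower, all in both samples (8.33%, near the 6.60% of all tested genes). Leaving out day 1 replicate 1, day 1 replicate 2 or day 14 replicate 3 gave 1 higher member, and the list median turned from -0.14 to 0.15 without day 1 replicate 1. Kcnh2, the ERG channel, measured 4.79 and 4.53 log2 CPM at day 1 and 5.99, 5.76, 5.62 and 6.02 at day 14 (log2 fold change -1.19, SE 0.18, adjusted p = 0.0019). Kcnh3 had 7.07 and 6.66 log2 CPM at day 1 against 7.72, 7.73, 7.35 and 7.89 at day 14 (log2 fold change -0.81, SE 0.21, adjusted p = 0.0188), and the inward rectifier Kcnj4 stood at 5.45 and 5.79 log2 CPM in the day 1 samples and 6.50, 6.68, 6.04 and 6.51 in the day 14 samples (log2 fold change -0.82, SE 0.26, adjusted p = 0.0372). All 3 were lower in each day 1 sample than in any day 14 sample, and Kcnh2 alone of them kept its call in all 6 fits that left out a sham sample. Cacng2 was not called without day 1 replicate 2, and Grik4 kept its call in 1 of the 6 fits.

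Markers of hippocampal fields and of neighbouring tissue differed between the 2 day 1 samples. The mean of 11 dentate granule cell markers was 5.65 log2 CPM in replicate 1 and 6.54 in replicate 2, against 5.84 to 6.08 at day 14, and that of 9 CA1 markers was 5.86 and 5.41 against 5.84 to 5.95. Prox1, which defines granule cells, measured 4.86 and 6.79 log2 CPM at day 1 and 4.88, 5.41, 5.52 and 4.98 at day 14. Wfs1, which marks CA1, had 8.41 and 6.16 log2 CPM at day 1 against 9.07, 8.98, 8.84 and 9.13 at day 14. Replicate 2 thus had the highest Prox1 and the lowest Wfs1 of the 6 samples, and neither Prox1 (adjusted p = 0.222) nor Wfs1 (adjusted p = 0.0615) passed the test. The part of these differences in the neuronal results was not tested.

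Markers of neocortex and thalamus had a higher mean in both day 1 samples. Of 17 tested, 6 were called higher and 0 lower, 5 of them in both samples (29.4%, against 7.98% of tested genes). All 17 had a positive log2 fold change, and the median was 0.73. Their mean was 3.88 and 3.82 log2 CPM at day 1 and 3.12 to 3.23 at day 14. Tbr1, a transcription factor of deep neocortical and glutamatergic neurons, stood at 5.42 and 5.64 log2 CPM in the day 1 samples and 4.48, 4.41, 4.73 and 3.92 in the day 14 samples (log2 fold change 1.12, SE 0.25, adjusted p = 0.00921). Tcf7l2, the Wnt effector that is abundant in thalamus, measured 4.35 and 4.06 log2 CPM at day 1 and 3.48, 3.11, 3.45 and 3.48 at day 14 (log2 fold change 0.83, SE 0.20, adjusted p = 0.0125), and its relative Lef1 had 3.92 and 3.46 log2 CPM at day 1 against 2.85, 3.09, 2.64 and 3.08 at day 14 (log2 fold change 0.79, SE 0.19, adjusted p = 0.0127). Fezf2, a factor of subcortically projecting neurons, was called (0.73) without meeting the conditions. Called members numbered 4 without either day 1 sample and 5 without each of the day 14 samples. The hippocampus was rolled out of the cortex by hand, and the part of adjoining tissue in these levels was not tested. Of 21 tested interneuron markers, 1 was called higher and 2 lower, with a median of 0.03. In both day 1 samples these were 1 and 1 (4.76% each, against 7.98% and 6.60% of tested genes), so the list as a whole did not rise. Pvalb, the calcium buffer of fast-spiking interneurons, stood at 7.01 and 6.81 log2 CPM in the day 1 samples and 6.10, 6.15, 5.66 and 5.38 in the day 14 samples (log2 fold change 1.06, SE 0.20, adjusted p = 0.00471) and kept its call in all 6 fits.

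**Figure D3:**
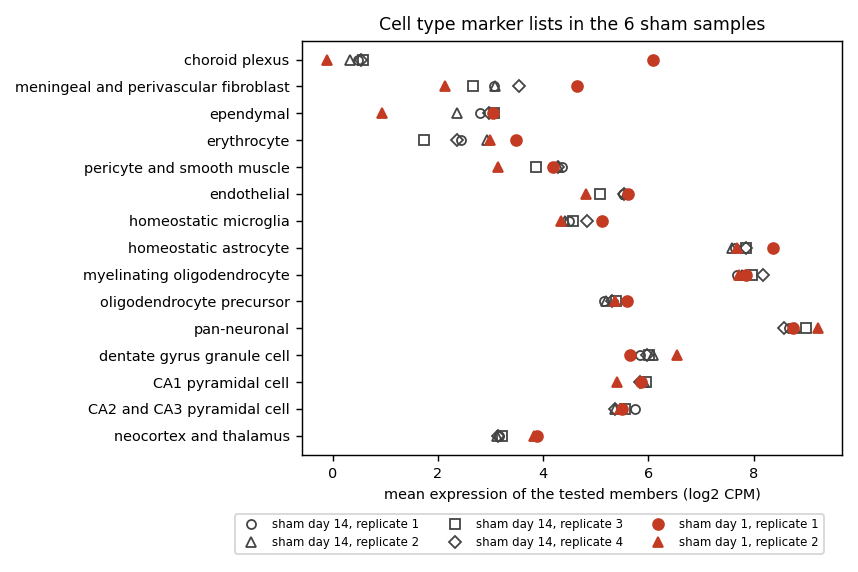
Mean expression in log2 CPM of the tested members of 15 cell type marker lists in each of the 6 sham samples, with filled red symbols for the 2 day 1 samples and open symbols for the 4 day 14 samples. The choroid plexus, fibroblast and ependymal lists part the 2 day 1 samples, while the neocortex and thalamus list has both day 1 samples (3.88 and 3.82) above day 14 (3.12 to 3.23).

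In sham rats 5 lists of immune, endothelial and myelin genes gave no calls, while other immune lists had a few. Those were antigen presentation (1 of 15 higher and 1 lower), complement (0 and 1 of 18) and acute phase genes (2 and 1 of 18). Their shares were 0 to 11.1% higher and 5.56% to 6.67% lower, against 11.3% and 7.88% of all tested genes. Of 24 activated microglia and macrophage genes, 14 leukocyte genes, 28 interferon response genes, 22 endothelial markers and 21 markers of myelinating oligodendrocytes, edgeR called 0 in either direction. At an unadjusted p under 0.05 these lists held 0 higher genes, except for 1 endothelial marker, and 0 to 2 lower genes each. Limma-voom called 0 in each list, and DESeq2 called 1 lower gene in the interferon list and 1 in the endothelial list. The day 1 pair lay on opposite sides of the day 14 range in the activated microglia, leukocyte and endothelial lists. Their means were 2.86 and 2.06 log2 CPM (day 14: 2.37 to 2.53), -0.12 and -1.08 (-0.96 to -0.24), and 5.62 and 4.82 (5.08 to 5.57). The leukocyte genes were near the limit of detection. The absence of calls therefore does not show that these lists were unchanged. Without day 1 replicate 1, each of the 5 lists had 1 to 3 lower members and 0 higher ones, and without day 14 replicate 3 the interferon and endothelial lists had 1 lower member each.

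Of 25 reactive astrocyte genes, 2 were called higher and 2 lower, with a median of -0.08 (8% in each direction, against 11.3% and 7.88% of all tested genes). S100a10, an annexin partner, measured 4.46 and 4.22 log2 CPM at day 1 and 4.18, 3.58, 3.77 and 3.45 at day 14 (log2 fold change 0.58, SE 0.18, adjusted p = 0.0398) and was the only member that met the conditions on both samples. Lcn2, which encodes the siderophore-binding lipocalin, had 2.32 and 0.62 log2 CPM at day 1 against 0.12, 0.09, -1.05 and 0.50 at day 14 (log2 fold change 1.78, SE 0.57, adjusted p = 0.0414), with replicate 1 the highest sample and replicate 2 just above the day 14 range. Nes, the intermediate filament of progenitors and reactive astrocytes, and the cytokine gene Clcf1 were called lower (-1.46 and -2.65) without meeting the conditions. Gfap, the astrocyte filament, stood at 10.61 and 9.90 log2 CPM in the day 1 samples and 10.50, 10.50, 10.30 and 10.80 in the day 14 samples (log2 fold change -0.24, SE 0.28, adjusted p = 0.572). Serpina3n, a protease inhibitor of reactive astrocytes, measured -0.76 and -1.39 log2 CPM at day 1 and -2.56, -1.54, -2.23 and -2.66 at day 14 (log2 fold change 1.63, SE 0.66, adjusted p = 0.0947). Timp1, an inhibitor of matrix proteases, had 2.34 and 0.53 log2 CPM at day 1 and 1.39 to 2.05 at day 14 (log2 fold change 0.04, SE 0.40, adjusted p = 0.959). These last 3 did not pass the test, and S100a10 and Lcn2 were each called in 1 of the 6 fits that left out a sham sample. The list had 0 higher and 4 lower members without day 1 replicate 1, and 1 and 0 without replicate 2.

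Genes of resting astrocytes were called higher for 4 of 18 members (3 in both day 1 samples) and lower for 0 (16.7% in both samples, against 7.98% of tested genes). The median was 0.38, and it turned to -0.13 without day 1 replicate 1. The mean of the list was 8.36 log2 CPM in replicate 1 and 7.69 in replicate 2, against 7.59 to 7.85 at day 14, so replicate 2 lay within the day 14 range. Glul, the glutamine synthetase that clears glutamate, had 11.36 and 10.81 log2 CPM at day 1 against 10.23, 10.03, 10.21 and 10.26 at day 14 (log2 fold change 0.93, SE 0.19, adjusted p = 0.00573). Gja1, the gap junction protein connexin 43, stood at 9.73 and 9.45 log2 CPM in the day 1 samples and 8.73, 8.55, 9.13 and 9.01 in the day 14 samples (log2 fold change 0.73, SE 0.20, adjusted p = 0.0253), and Atp1b2, a subunit of the sodium pump, measured 10.81 and 10.38 log2 CPM at day 1 and 9.60, 9.81, 9.95 and 10.12 at day 14 (log2 fold change 0.73, SE 0.19, adjusted p = 0.019). Replicate 1 was the higher day 1 sample in all 3, and without it 0 members of the list were called, against 4 without replicate 2. Leaving out day 14 replicate 1 gave 2 and leaving out replicate 3 gave 7. S100b, a calcium-binding protein of astrocytes, was called (0.83) without meeting the conditions. Among 19 genes of cytokine and NF-κB signalling, Vcam1 and Nfkbiz were higher in both day 1 samples and edgeR called 0 lower (0 by limma-voom, 1 by DESeq2 and 2 at an unadjusted p under 0.05). The adhesion molecule Vcam1 had 6.34 and 6.46 log2 CPM at day 1 against 5.51, 5.32, 5.55 and 5.80 at day 14 (log2 fold change 0.85, SE 0.19, adjusted p = 0.00948). The nuclear inhibitor Nfkbiz stood at 1.74 and 2.14 log2 CPM in the day 1 samples and 1.30, 1.02, 0.60 and 1.26 in the day 14 samples (log2 fold change 0.92, SE 0.24, adjusted p = 0.0182). Neither was called without day 1 replicate 2, at highest adjusted p-values of 0.0676 and 0.171.

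Of 25 matrix genes, 3 were lower in both day 1 samples (12%, against 6.60% of tested genes) and 0 were called higher, with a median of -0.13. The median was -0.89 without day 1 replicate 1, with 5 lower members, and turned to 0.25 without day 1 replicate 2, with 2 higher and 3 lower members. Col4a1, the basement membrane collagen, measured 6.80 and 6.41 log2 CPM at day 1 and 8.30, 8.04, 7.54 and 8.05 at day 14 (log2 fold change -1.39, SE 0.22, adjusted p = 0.00201). The fibrillar collagen Col5a2 had 6.32 and 6.18 log2 CPM at day 1 against 7.96, 7.70, 7.15 and 7.92 at day 14 (log2 fold change -1.46, SE 0.27, adjusted p = 0.0035), and the microfibril gene Fbn1 stood at 4.81 and 5.44 log2 CPM in the day 1 samples and 6.88, 6.64, 5.69 and 6.31 in the day 14 samples (log2 fold change -1.29, SE 0.30, adjusted p = 0.0109). In all 3, day 14 replicate 3 was the day 14 sample nearest to day 1, and Fbn1 was not called without day 1 replicate 1 (log2 fold change -1.01, adjusted p = 0.0772). None of the 25 had an unadjusted p under 0.05 in the higher direction, and limma-voom and DESeq2 also called 0 higher. The mean of 18 markers of meningeal and perivascular fibroblasts was 4.65 and 2.14 log2 CPM in the day 1 samples and 2.66 to 3.55 at day 14, so those markers were on opposite sides of day 14 in the day 1 pair. Of 17 pericyte and smooth muscle markers, 0 were called higher and 1 lower, the latter without meeting the conditions, and 15 had a negative value (median -0.48). By limma-voom and DESeq2 0 were higher, and 1 had an unadjusted p under 0.05 in that direction. Their mean was 4.18 log2 CPM in day 1 replicate 1, within the 3.86 to 4.36 of day 14, and 3.13 in replicate 2. Leaving out day 1 replicate 1 gave 6 lower members at a median of -1.14, and without replicate 2, 1 was higher and 0 were lower at a median of -0.01.

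The choroid plexus genes were set apart by the condition on both samples. Of 24 tested, edgeR called 18 higher and 0 of these met the conditions, while limma-voom called 0 and DESeq2 18. Sostdc1, a secreted Wnt and BMP antagonist, measured 7.58 and -1.39 log2 CPM at day 1 and -1.21, -2.16, -1.91 and -2.66 at day 14. Mfrp, a frizzled-related membrane protein, had 8.40 and -2.35 log2 CPM at day 1 against 0.29, 0.63, 1.18 and 0.93 at day 14, and Kl, the anti-aging protein klotho, stood at 7.36 and -0.10 log2 CPM in the day 1 samples and -0.83, -0.63, -0.31 and -1.21 in the day 14 samples. In each, replicate 1 lay over 6 log2 units above the other 5 samples. F5, Clic6, Slc4a5, Kcnj13, Folr1 and Tmem72 had the same order, with 5.99 to 8.13 log2 CPM in replicate 1 and at most 1.43 in the other 5. Tmem27 had 432 counts in replicate 1 and 0 in the other 5 libraries, and its day 1 mean was at least 66.3-fold higher than a floor of 3 counts per day 14 library. Without day 1 replicate 1, 0 members were called and the fitted change of Ttr turned to -1.62, that of Mfrp to -4.06, that of Clic6 to -3.80, that of Folr1 to -5.13, that of Kcnj13 to -2.05, that of Slc4a5 to -1.42 and that of F5 to -0.45.

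Proteasome genes were among those that rose in both day 1 samples. Of 33 tested, 11 were called higher and 0 lower, and 9 met the conditions (27.3%, against 7.98% of tested genes), with a median of 0.22. Limma-voom called 0 lower, DESeq2 2, and 2 had an unadjusted p under 0.05 in that direction. Psmc1, an ATPase of the regulatory particle, measured 7.95 and 8.23 log2 CPM at day 1 and 7.24, 7.33, 7.40 and 7.25 at day 14 (log2 fold change 0.79, SE 0.13, adjusted p = 0.00196). Psmd7, a subunit of its lid, had 7.71 and 7.91 log2 CPM at day 1 against 7.06, 7.14, 7.20 and 6.95 at day 14 (log2 fold change 0.72, SE 0.12, adjusted p = 0.00283). Psma4, of the core's outer ring, stood at 7.50 and 7.84 log2 CPM in the day 1 samples and 6.79, 6.95, 6.85 and 6.99 in the day 14 samples (log2 fold change 0.78, SE 0.15, adjusted p = 0.00538), and the ATPase Psmc2 measured 7.62 and 7.85 log2 CPM at day 1 and 7.10, 7.25, 7.15 and 7.04 at day 14 (log2 fold change 0.61, SE 0.15, adjusted p = 0.0125). These changes were under 1 log2 unit. Psmb3, of the inner catalytic ring, had a log2 fold change of 0.47 and was not called in any fit that left out a sham sample. The list had 9 higher members without day 1 replicate 1, 3 without day 1 replicate 2, 5 without day 14 replicate 1 or 4, 7 without replicate 2 and 8 without replicate 3, and 6 without the 2 TBI day 14 libraries that hold choroid plexus genes.

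Of 24 chaperone and heat shock genes, 6 were called higher and 0 lower, and 4 met the conditions (16.7%, against 7.98% of tested genes). Hspe1, the mitochondrial co-chaperonin, had 5.92 and 6.37 log2 CPM at day 1 against 5.41, 5.33, 5.33 and 5.14 at day 14 (log2 fold change 0.86, SE 0.23, adjusted p = 0.0182). Fkbp4, an HSP90 partner of steroid receptors, stood at 7.92 and 8.37 log2 CPM in the day 1 samples and 7.26, 7.54, 7.60 and 7.41 in the day 14 samples (log2 fold change 0.71, SE 0.22, adjusted p = 0.0375), and the small heat shock protein Cryab measured 5.99 and 5.83 log2 CPM at day 1 and 5.07, 5.18, 5.26 and 5.39 at day 14 (log2 fold change 0.68, SE 0.22, adjusted p = 0.0396). Dnajb5, of the HSP40 family, had a log2 fold change of 0.60. The list had 7 higher and 1 lower members without day 1 replicate 1 and 0 without day 1 replicate 2 or day 14 replicate 4, 1 without day 14 replicate 1, 2 without replicate 2 and 2 without the 2 TBI libraries. In the list of ER stress and ATF4 targets, 3 of 29 were higher and 1 was lower, all in both samples. These are 10.3% and 3.45%, against 7.98% and 6.60% of tested genes in both samples and 11.3% and 7.88% called. Atf4, the translation-controlled factor of the stress response, had 8.14 and 7.93 log2 CPM at day 1 against 7.31, 7.38, 7.56 and 7.18 at day 14 (log2 fold change 0.68, SE 0.15, adjusted p = 0.0079). Dnajc3, the ER co-chaperone that inhibits eIF2 alpha kinases, had 1.06, and Ddit3, which encodes CHOP, had 0.64. Atf4 kept its call in all 6 fits, and the list had 3 higher and 3 lower members without day 1 replicate 1 and 1 and 0 without replicate 2.

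Of 43 oxidative phosphorylation genes, 7 were called higher and 3 lower (6 and 2 in both samples, or 14.0% and 4.65%, against 7.98% and 6.60% of tested genes), with a median of 0.02. Uqcrb, a complex III subunit, stood at 6.81 and 7.23 log2 CPM in the day 1 samples and 5.48, 5.58, 5.54 and 5.46 in the day 14 samples (log2 fold change 1.52, SE 0.19, adjusted p = 0.000987). Ndufa1, of complex I, measured 6.71 and 6.80 log2 CPM at day 1 and 5.54, 5.75, 5.57 and 5.59 at day 14 (log2 fold change 1.14, SE 0.18, adjusted p = 0.0019). Both rose, while Cox5a, of complex IV, had 5.67 and 5.74 log2 CPM at day 1 against 6.37, 6.32, 6.24 and 6.18 at day 14 (log2 fold change -0.58, SE 0.13, adjusted p = 0.00887) and Ndufa10 had a log2 fold change of -0.88. Leaving out day 1 replicate 1 gave 5 higher and 7 lower members, leaving out replicate 2 gave 5 and 1, and leaving out day 14 replicate 3 gave 5 and 5.

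Of 53 cytosolic ribosomal protein genes, 6 were called higher and 8 lower (11.3% and 15.1%, against 11.3% and 7.88% of all tested genes). In both samples these were 4 and 5 (7.55% and 9.43%, against 7.98% and 6.60%). Rpl23 stood at 7.95 and 8.27 log2 CPM in the day 1 samples and 6.53, 6.47, 6.30 and 6.43 in the day 14 samples (log2 fold change 1.69, SE 0.18, adjusted p = 0.000462). Rps24, Rps7 and Rpl5 were higher with log2 fold changes of 1.13, 0.95 and 0.81. Rps2 measured 4.70 and 3.86 log2 CPM at day 1 and 6.39, 6.06, 6.47 and 6.50 at day 14 (log2 fold change -2.03, SE 0.35, adjusted p = 0.00284) and was lower. These genes have near-identical processed copies in the genome, so reads could be split between copies in the counting and each value is uncertain. Leaving out day 1 replicate 1 gave 4 higher and 12 lower members, leaving out replicate 2 gave 8 and 1, and leaving out day 14 replicate 1, 2 or 4 left 6 higher and 4 to 5 lower.

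Of 28 genes of hypoxia and glycolysis, 5 were called higher, all in both samples (17.9%, against 7.98% of tested genes). EdgeR called 0 lower (0 by limma-voom, 1 by DESeq2 and 2 at an unadjusted p under 0.05). Pfkp, the platelet-type phosphofructokinase, had 9.24 and 9.48 log2 CPM at day 1 against 8.65, 8.85, 8.75 and 8.73 at day 14 (log2 fold change 0.62, SE 0.13, adjusted p = 0.00793). Hk2, a hexokinase, stood at 4.99 and 5.06 log2 CPM in the day 1 samples and 4.07, 4.01, 4.17 and 4.05 in the day 14 samples (log2 fold change 0.95, SE 0.24, adjusted p = 0.0145), and Ldha, lactate dehydrogenase A, measured 5.94 and 6.30 log2 CPM at day 1 and 5.24, 5.21, 5.29 and 5.01 at day 14 (log2 fold change 0.94, SE 0.27, adjusted p = 0.0251). None of the 3 was called without day 1 replicate 2, when 0 members of the list were called. Without day 1 replicate 1, 4 members were higher and 2 lower, and without day 14 replicate 1, 2 or 4, 2 were higher. Leaving out the 2 TBI day 14 libraries that hold choroid plexus genes gave 3.

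In the list of 24 cholesterol synthesis genes, 3 were higher and 3 lower, with a median of -0.17. In both samples these were 3 and 2 (12.5% and 8.33%, against 7.98% and 6.60% of tested genes). Idi1, the isopentenyl diphosphate isomerase, had 5.26 and 5.54 log2 CPM at day 1 against 4.13, 4.01, 4.38 and 4.21 at day 14 (log2 fold change 1.22, SE 0.23, adjusted p = 0.00452), and Hmgcs1, the synthase that feeds the pathway, stood at 8.76 and 8.86 log2 CPM in the day 1 samples and 7.99, 8.05, 8.34 and 8.10 in the day 14 samples (log2 fold change 0.68, SE 0.18, adjusted p = 0.0199). Srebf2, the master transcription factor of the pathway, measured 8.02 and 8.26 log2 CPM at day 1 and 8.69, 8.71, 8.63 and 8.76 at day 14 (log2 fold change -0.55, SE 0.14, adjusted p = 0.0158), so the factor and some of its targets moved in opposite directions. Lss, lanosterol synthase, was lower at -0.58 and kept its call in none of the 6 fits that left out a sham sample. Idi1 kept its call in all 6. The list had 1 higher and 1 lower member without day 14 replicate 1, 2 or 4, 1 and 2 without day 1 replicate 2, and 2 and 1 without the 2 TBI libraries.

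A few genes of adult neurogenesis rose in both day 1 samples, and cell cycle genes fell at about the share of the whole table. Of 17 adult neurogenesis genes, 3 were higher in both day 1 samples (17.6%, against 7.98% of tested genes). A further 1 was called lower without meeting the conditions. Sox4, a factor of immature neurons, had 5.28 and 5.33 log2 CPM at day 1 against 4.45, 4.52, 4.57 and 4.51 at day 14 (log2 fold change 0.79, SE 0.18, adjusted p = 0.00946), and Stmn1, a microtubule-destabilising protein, stood at 7.06 and 7.04 log2 CPM in the day 1 samples and 6.30, 6.28, 6.28 and 6.37 in the day 14 samples (log2 fold change 0.75, SE 0.17, adjusted p = 0.01). The day 14 samples lay close together in both genes. Neither was called without day 1 replicate 2, at highest adjusted p-values of 0.058 and 0.0529. Among 29 cell cycle genes, 1 was called higher and 2 lower, of which Aurkb and Mki67 met the conditions. These 2 are 6.9% of the list, near the 6.60% of all tested genes that were lower in both samples. Mki67, which encodes the proliferation antigen Ki-67, measured 1.57 and 2.47 log2 CPM at day 1 and 3.72, 3.81, 3.48 and 3.57 at day 14 (log2 fold change -1.58, SE 0.51, adjusted p = 0.0442), and kept its call in 1 of the 6 fits. Without day 1 replicate 2 the neurogenesis list had 1 higher and 0 lower members, and without either day 1 sample the cell cycle list had 0 calls.

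**Figure D4:**
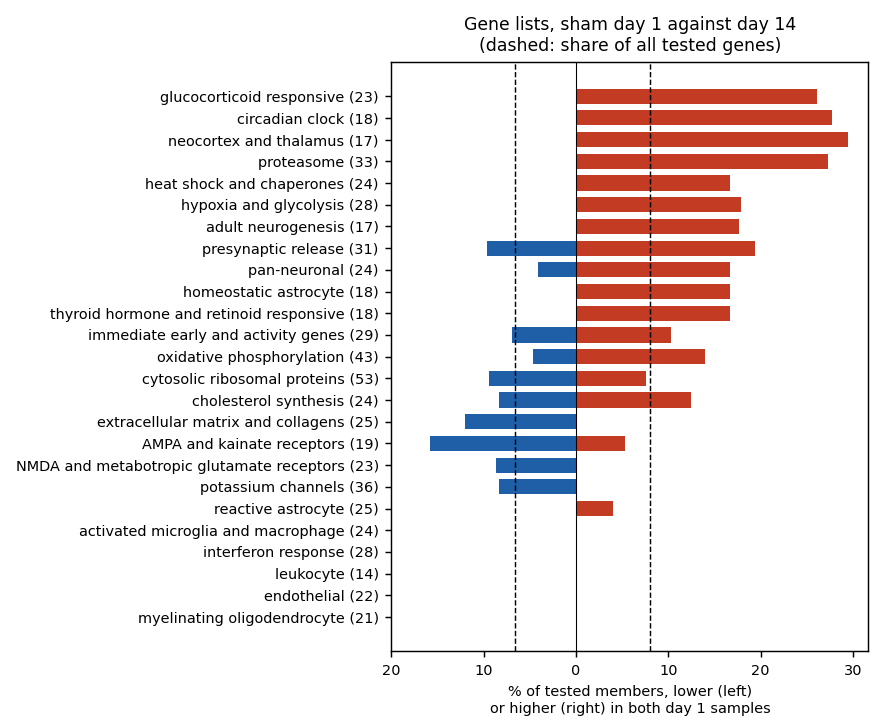
Share of the tested members of 25 gene lists that were higher (red, to the right) or lower (blue, to the left) in both day 1 sham samples, in percent, with the number of tested members in parentheses. Dashed lines give the shares among all tested genes (7.98% higher and 6.60% lower), and 5 lists of immune, vascular and myelin genes have no bar.

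The same interval was then compared in the TBI rats, which share no sample with the sham rats. TBI day 1 against TBI day 14 gave 2823 higher genes (21.9% of those tested) and 2265 lower genes (17.6%). Of the 1027 genes higher in both day 1 sham samples, 776 (75.6%) were also higher in TBI at day 1, 245 were not called and 6 were called lower. These 776 are 27.5% of the genes higher in TBI. Of the 850 lower genes, 500 (58.8%) were also lower in TBI, 341 were not called and 9 were called higher, and the 500 are 22.1% of the genes lower in TBI. The sign was the same for 973 of the 1027 (94.7%) and 786 of the 850 (92.5%), and the median TBI change was 0.65 and -0.55. Of the 423 and 164 called genes whose day 1 sham samples failed the conditions, 50.6% and 62.2% were called the same way in TBI. Without TBI day 14 replicates 2 and 3, the libraries with choroid plexus genes, TBI gave 1711 higher and 1478 lower genes, 581 (56.6%) of the 1027 and 369 (43.4%) of the 850 were called the same way, and 974 and 779 had the same sign.

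The difference between the TBI and the sham change passed the test for 474 genes, of which 30 were among the 1027 and 27 among the 850, and for 136 genes without those 2 TBI libraries, of which 11 and 11. For the glucocorticoid, clock and proteasome lists, TBI gave 13 of 23, 7 of 18 and 25 of 33 higher members, and 0, 2 and 0 lower. Gng13 rose in TBI too (log2 fold change 2.43), as did Zfp36l2 (2.33), Ndufa12 (1.63) and Psmc1 (0.93). Ccdc175 fell in both (-2.59 in TBI). Klf9 and Tsc22d3, which passed in sham, had TBI values of 0.31 and 0.18 that did not pass, and the difference from sham passed neither for Klf9 (adjusted p = 0.285) nor for Tsc22d3 (adjusted p = 0.132).

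Some genes had a time change that differed from TBI by the test of the difference. Cyr61, lower at day 1 in sham, had 4.55, 5.53, 5.15 and 4.71 log2 CPM in the TBI day 1 samples and 1.20 to 1.99 in the TBI day 14 samples, and the difference between the changes was 5.66, SE 0.78, adjusted p = 0.00168. Calml4 was 0.69 to 2.46 in TBI day 1 and 2.69 to 4.75 in TBI day 14, opposite in direction to sham (difference -3.55, SE 0.69, adjusted p = 0.0122). The 4.75 was in TBI day 14 replicate 3, a library with choroid plexus genes. Without TBI day 14 replicates 2 and 3 its TBI change moved from -1.67 to -0.85 and the difference to -2.70 (adjusted p = 0.0283). Plk5 fell in both and fell further in TBI, to 2.50 to 2.99 at day 1 from 6.00 to 6.86 at day 14 (difference -2.02, SE 0.37, adjusted p = 0.0083). Col4a1 was 7.65 to 7.98 in TBI day 1 and 7.23 to 7.81 in TBI day 14, without the fall seen in sham (difference 1.63, SE 0.27, adjusted p = 0.00633).

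Sall1, a zinc finger factor that marks resident microglia, was the only homeostatic microglia marker of 19 called in sham, at a log2 fold change of 0.56. It kept this call in 2 of the 6 fits that left out a sham sample, at log2 fold changes of 0.37 to 0.73, and lost it without the 2 TBI libraries. In TBI Sall1 fell at day 1 (-0.68, difference -1.24, SE 0.23, adjusted p = 0.0083). Arc, which did not pass in sham, fell in TBI (-1.43, difference -1.60, SE 0.41, adjusted p = 0.0432), and this difference did not pass without the 2 TBI libraries (adjusted p = 0.122). In the reactive astrocyte list, 19 of 25 members rose in TBI at day 1 with a median of 2.20, against 2 of 25 and -0.08 in sham. Serpina3n had 7.61 to 8.58 log2 CPM in TBI day 1 and -0.44 to 0.30 in TBI day 14, and its change exceeded that in sham by 6.82, SE 0.99, adjusted p = 0.00245. S100a10 differed by 3.54, SE 0.26, adjusted p = 9.64e-06, with 7.86 to 8.28 log2 CPM in TBI day 1 and 3.82 to 4.03 in TBI day 14, and Timp1 by 4.62, SE 0.52, adjusted p = 0.000413.

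**Figure D5:**
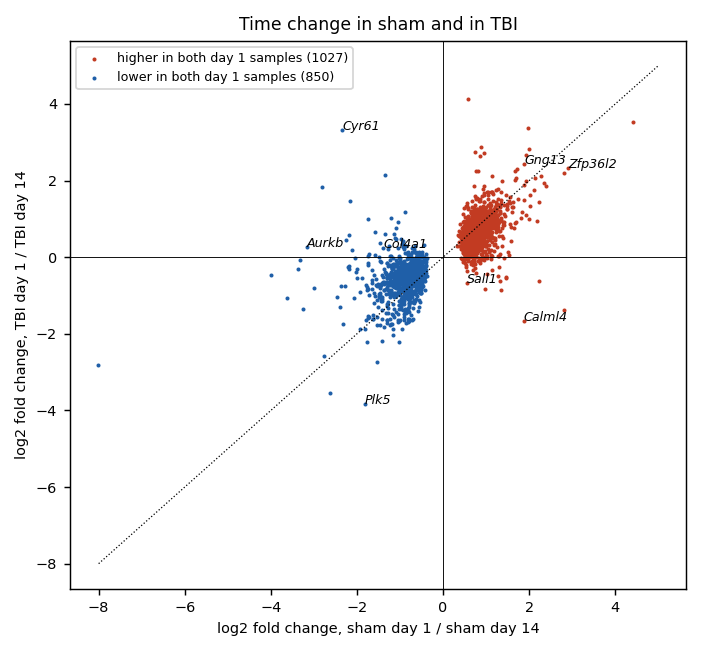
Log2 fold change from day 14 to day 1 in sham (x axis) and in TBI (y axis) for the 1027 genes higher (red) and the 850 genes lower (blue) in both day 1 sham samples, with the dotted line at equal change. Most points lie in the quadrants of equal sign (94.7% of the red and 92.5% of the blue), and Cyr61, Calml4 and Sall1 lie outside them.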

How the data were processed

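The RNA-seq count table covers 14 rats, 6 with sham surgery (2 killed at day 1, 4 at day 14) and 8 with TBI (4 at either day). The ChIP-seq peak lists of the series were not used. The authors prepared stranded mRNA libraries, aligned single-end reads to rn5 (STAR 2.4.2a) and assigned them to UCSC gene models (featureCounts 1.5.0), per the paper and the submitters' processing notes, and the deposited values are whole-number counts without normalization. The strand setting of the counting is not given in the sources used here, so antisense pairs are uncertain. The methods describe 2 sham rats at day 14, and 4 labelled samples were used. A figure legend of the paper mentions a batch correction, the labels give no batch, and a batch and the day cannot be told apart.

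Differences were tested with edgeR 4.0.16 under R 4.3.3 (quasi-likelihood test after TMM scaling and a filter by group, 1 mean per group over the 14 samples, two-sided, Benjamini-Hochberg over 12875 genes, threshold 0.05). The alternatives were limma-voom (limma 3.58.1), DESeq2 1.42.0, median-of-ratios factors, other filters and thresholds, the replicate number as a block, a choroid plexus score as covariate, the 6 sham samples alone, each sham sample left out and, added after seeing the data, TBI day 14 replicates 2 and 3 left out. The members, the 50 gene lists (written from general knowledge) and the tests were chosen with earlier results of these data known. Genes named are the 12 largest increases and decreases in both day 1 samples, up to 4 called members per list with the smallest adjusted p, called genes with the largest gap between the day 1 samples, and further members of the lists. Only some of the genes this rule covers are named, and the others are not reported here. The fit was tested on simulated data for sham day 1 against sham day 14: of 100 genes changed by 1 log2 unit 62 were recovered, of 100 changed by 2 units 96, with 10 false calls among 12746 genes. All simulated rats were drawn from a shared mean for each gene, and the changed genes had a mean over 50 counts. The simulation held no difference in tissue content between the 2 day 1 samples, so it cannot gauge false calls from that source. Promoters were searched and figures drawn in Python 3.11.15 with matplotlib 3.10.9.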

Additional observations from a re-analysis of the deposited data

Results flagged for a closer look

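Of 429 groups of 4 samples (143 genes in sham day 14, TBI day 1 and TBI day 14), 29 held a sample far from the other 3 by Dixon's criterion, which chance alone meets in about 1 of 20 groups. Groups of 2, such as sham day 1, cannot be examined in this way. Among the day 14 sham samples, replicate 3 stood apart in Cacng2 (5.76 log2 CPM), Elavl4 (5.05), Grik5 (8.67) and Plk5 (5.81), each time toward the day 1 level, replicate 1 in Calml4 (2.52) and Slc17a7 (10.94), and replicate 2 in Tcf7l2 (3.11).

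In TBI day 1, replicate 1 stood apart in Ccdc175 (-2.27), Mfrp (-2.27), Psmc2 (7.46) and Slc17a7 (8.81), replicate 2 in Atf4 (9.0) and Kcnh2 (4.96), replicate 3 in Cat (7.54) and Prdx6 (7.64), and replicate 4 in Elavl4 (5.46). In TBI day 14, replicate 1 stood apart in Cry1 (2.93), Grik4 (7.48), Nxph3 (1.24) and Tox (2.88), replicate 2 in Cplx2 (7.55), Nfkbiz (1.90) and Rps24 (6.86), replicate 3 in Atf4 (7.79), Cacng8 (8.06), Calml4 (4.75) and Gfap (12.06), and replicate 4 in Gpd1 (7.04) and Uqcrb (5.29).

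The change from day 14 to day 1 differed between TBI and sham for 24 of the named genes at an adjusted p under 0.05 in edgeR. Values are the TBI change minus the sham change on the log2 scale. Positive differences were seen for Serpina3n (6.82), Cyr61 (5.66), Clcf1 (4.85), Timp1 (4.62), Lcn2 (4.48), Nes (3.59), S100a10 (3.54), Rps2 (1.65) and Col4a1 (1.63). Negative differences were seen for Sall1 (-1.24), Arc (-1.60), Plk5 (-2.02) and Calml4 (-3.55).

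Of the choroid plexus genes, Folr1 (-8.68), F5 (-9.73), Slc4a5 (-9.93), Clic6 (-11.01), Kcnj13 (-11.09), Kl (-11.95), Tmem72 (-13.55), Mfrp (-13.63), Sostdc1 (-15.75), Tmem27 (-16.28) and Ttr (-17.29) also differed. Besides sham day 1 replicate 1, TBI day 14 replicates 2 and 3 held choroid plexus genes (list means 3.61 and 5.24 log2 CPM), and both enter these differences. Without these 2 TBI libraries the difference was -9.23 for Ttr (adjusted p = 0.0388) and -5.21 to -9.04 for the 8 other genes still tested, which did not pass, while Sostdc1 and Tmem27 were not tested. Of the 13 flagged genes outside the choroid plexus list, Arc (-1.56) and Rps2 (1.5) did not pass in that fit. Fitted values also depend on the prior count where libraries hold 0 counts.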

How the results depend on the processing

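Under median-of-ratios factors, limma-voom, DESeq2, the 6 sham samples alone, no filter and a mean of at least 50 counts, the counts stayed within 1.5 times those reported (1196 to 1725 higher, 930 to 1441 lower). At an adjusted p under 0.01 they were 497 higher and 255 lower, and 456 and 244 in both day 1 samples. An agreement of at least 75% left 446 higher and 427 lower genes. The choroid plexus score as covariate gave 549 genes lower in both samples, and with it the changes of Clic6 (-0.91), Folr1 (-1.0), Kcnj13 (-0.89), Mfrp (-0.91) and Ttr (-0.97) turned, as did that of Folr1 (-0.013) by limma-voom. Its construction removes what follows these genes.

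With each sham sample left out in turn, 673 to 1490 genes were higher and 270 to 1208 lower. The counts in both day 1 samples cannot be defined without one of these, and ran from 669 to 1110 higher and from 466 to 1033 lower without a day 14 sample. With 1 day 1 sample left, that sample is assumed to vary like the other groups. The fitted changes ranged from -3.80 to 7.33 for Clic6, -0.45 to 8.30 for F5, -5.13 to 5.11 for Folr1, -2.05 to 7.52 for Kcnj13, -4.06 to 7.68 for Mfrp, -1.42 to 7.34 for Slc4a5 and -1.62 to 9.58 for Ttr, negative without day 1 replicate 1, the library with the choroid plexus genes. Of 130 called genes named in the text, 38 were called in all 6 of these fits, and 47 were not called without day 1 replicate 1, 63 without day 1 replicate 2 and 36, 35, 8 and 37 without day 14 replicate 1, 2, 3 and 4.

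The labels give groups the same replicate numbers and no pairing. Deviations of same-numbered samples correlated at -0.35 to 0.24, so the numbers were not taken as a pairing. With the replicate number as a block, 1510 genes were higher and 1273 lower, and 1078 and 965 in both day 1 samples.

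The settings were applied to the TBI counts after seeing the data. The number of genes whose TBI and sham changes differ moved most, from 474 to 278 by limma-voom, 1053 by DESeq2, 238 with the choroid plexus score and 118 at an adjusted p under 0.01, and to 281, 250 and 266 without day 14 sham replicate 1, 2 and 4. Leaving out TBI day 14 replicates 2 and 3, also chosen after seeing the data, gave 136 such genes, 1711 higher and 1478 lower genes in TBI, and 498 and 323 genes called the same way in both sham samples and TBI, and 17 named genes lost their sham call. The day 1 sham group holds 2 rats, which limits the precision of the sham comparison.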

Other observations

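Antioxidant genes were called in both directions. Of 24 tested NRF2 and metallothionein genes, 3 were higher and 1 was lower, all in both day 1 samples (12.5% and 4.17%, against 7.98% and 6.60% of tested genes), with a median of 0.23. Catalase (Cat) had 7.52 and 7.48 log2 CPM at day 1 against 6.59, 6.76, 6.81 and 6.59 at day 14 (log2 fold change 0.81, SE 0.15, adjusted p = 0.00399). The glutathione transferase Gstm1 stood at 8.55 and 8.16 log2 CPM in the day 1 samples and 7.63, 7.52, 7.46 and 7.65 in the day 14 samples (log2 fold change 0.80, SE 0.14, adjusted p = 0.00312), and the peroxiredoxin Prdx6 measured 7.71 and 7.34 log2 CPM at day 1 and 6.62, 6.77, 6.84 and 6.71 at day 14 (log2 fold change 0.80, SE 0.18, adjusted p = 0.00887). All 3 were higher in each day 1 sample than in any day 14 sample. Ftl1, the light chain of ferritin, had 2.70 and 2.04 log2 CPM at day 1 against 4.39, 3.98, 3.82 and 3.79 at day 14 (log2 fold change -1.63, SE 0.26, adjusted p = 0.00216) and was lower, and its many processed copies make its count uncertain. Prdx6 was not called without day 1 replicate 1, and the list then had 2 higher and 3 lower members.

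Among oligodendrocyte precursor markers, 4 of 15 were called higher and 2 of these in both day 1 samples, with 0 to 5 called in the fits that left out a sham sample. Of 33 ribosome biogenesis genes, 6 were called higher and 4 lower (5 and 3 in both samples, or 15.15% and 9.09%), against 22 higher and 0 lower in TBI. Of 30 splicing factor genes, 6 were higher and 2 lower (3 and 1 in both samples, or 10% and 3.33%). Of the precursor markers 13.3% were higher in both samples, and of all tested genes 7.98% were higher and 6.60% lower.

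Genes were also counted by the first letters of their symbols, in families of at least 20 tested members that were picked after their values were seen, so no test is given. Of 289 solute carriers (Slc), 5 (1.73%) were higher and 43 (14.9%) lower in both day 1 samples, with a median of -0.29. The transmembrane proteins (Tmem) had 8 higher and 22 lower of 167, and the palmitoyltransferases (Zdhhc) 0 and 5 of 21. Symbols that begin with Rps had 2 higher and 7 lower of 39 (5.13% and 17.95%), and those that begin with Rpl 3 and 1 of 44. The zinc finger proteins (Zfp) had 18 higher and 2 lower of 170, a higher share of 10.6%. Higher members also outnumbered lower ones in Rab GTPases (13 and 2 of 58) and in ubiquitin-conjugating enzymes and relatives (Ube, 8 and 0 of 34). The same held for the mitochondrial ribosomal proteins (Mrpl, 8 and 0 of 39, and Mrps, 7 and 0 of 28). The DnaJ C co-chaperones (Dnajc, 7 and 0 of 24) had the highest share of higher members of the families counted (29.2%). The shares among all tested genes were 7.98% higher and 6.60% lower.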
